A study of Mus musculus and Rattus norvegicus with 12 samples.

Results

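Pyruvate kinase genes and the splicing regulators of Pkm were followed as 9 genes: the 2 enzyme genes Pkm and Pklr, and the regulators Ptbp1, Ptbp2, Ptbp3, Hnrnpa1, Hnrnpa2b1, Srsf3 and Rbm4. They were chosen by name, from what is known of Pkm splicing, but with earlier results of these data known. All 9 had a row among the 54087 gene symbols of the mouse table and the 28909 of the rat table. Mouse samples were heart apex taken 14 days after tamoxifen, with 3 libraries per group; the labels give cardiomyocytes as the cell type, but the tissue holds other cells too. Control mice (flox) carried floxed Jmjd4 alleles (Jmjd4f/f). Knockout mice (cKO) carried the same alleles with MCM, a Cre recombinase that the labels place under Myh6, a promoter active in cardiomyocytes. Both groups received tamoxifen, and no Cre is named for the controls, so effects of Cre and of the deletion cannot be told apart. Rat samples were ventricular cardiomyocytes of neonatal Sprague-Dawley rats (NRVCs), taken at 1 day of age and given a control siRNA (siNC) or an siRNA against Jmjd4 (siJmjd4) for 48 h, again with 3 libraries per group. The labels give neither the age of the mice nor the source of the NRVC replicates, so p-values measure the spread between these libraries, which in the NRVCs may be technical. The series title concerns degradation of PKM2 protein in cardiomyocytes; protein was not measured in these libraries.

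Pyruvate kinase makes pyruvate and ATP from phosphoenolpyruvate, the last step of glycolysis. Pkm yields the M1 isoform, typical of adult skeletal muscle, heart and brain, or the M2 isoform, typical of embryonic and proliferating cells, by keeping either of a pair of mutually exclusive exons. Pklr encodes the liver and red-cell enzymes. The polypyrimidine tract-binding protein PTBP1 and the proteins hnRNP A1 and hnRNP A2 repress the M1 exon in cultured cells, SRSF3 promotes the M2 exon, and RBM4 has been found to favour M1 in differentiating cells. PTBP2 is the neuronal relative of PTBP1, and PTBP3 is a further relative first known from blood cells.

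The counts were made per gene and so hold the M1 and M2 transcripts together. The pair of exons is shown because it is what the gene-level count cannot separate. In the GENCODE M21 annotation of GRCm38, the assembly that mm10 names, Pkm (ENSMUSG00000032294.17) lies on the plus strand of chromosome 9 from 59656368 to 59679375. The M1 exon is at chr9:59675029-59675195 and the M2 exon at chr9:59675568-59675734, both wholly coding, with 372 bases between them. Capitals mark the 64 positions at which the exons differ.
Pkm M1 exon: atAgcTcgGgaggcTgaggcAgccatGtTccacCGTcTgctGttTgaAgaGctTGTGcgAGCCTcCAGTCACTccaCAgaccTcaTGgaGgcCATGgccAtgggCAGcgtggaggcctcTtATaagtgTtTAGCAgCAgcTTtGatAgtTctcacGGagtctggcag
Pkm M2 exon: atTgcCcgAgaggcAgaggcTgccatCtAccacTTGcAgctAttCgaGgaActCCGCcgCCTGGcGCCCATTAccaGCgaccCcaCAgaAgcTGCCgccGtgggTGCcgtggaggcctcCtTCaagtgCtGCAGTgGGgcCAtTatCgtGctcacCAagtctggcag
The exons have 167 bases each and are identical at 103 positions, 61.7%. The M1 and M2 coding sequences share 1426 of 1593 bases (89.5%), so most of the coding sequence is the same in both.

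The regulators have alternative exons of their own, which the gene-level counts also merge. Each of the 3 Ptbp genes has a coding exon of 34 bases, a length that is no multiple of the codon; in Ptbp1 and Ptbp2 its skipping, which PTB proteins promote, is known to send the transcript to decay. These exons lie at chr10:79862014-79862047 (plus strand, Ptbp1), chr3:119724612-119724645 (minus strand, Ptbp2) and chr4:59485339-59485372 (minus strand, Ptbp3). They are shown to let the family be compared, and capitals mark the 15 positions that are not the same in all 3.
Ptbp1 34-base exon: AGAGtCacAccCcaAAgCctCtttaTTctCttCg
Ptbp2 34-base exon: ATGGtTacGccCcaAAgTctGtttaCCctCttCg
Ptbp3 34-base exon: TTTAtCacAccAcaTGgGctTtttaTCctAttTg
Ptbp1 and Ptbp2 were identical at 26 of 34 positions (76.5%), Ptbp1 and Ptbp3 at 22 (64.7%) and Ptbp2 and Ptbp3 at 21 (61.8%). In Hnrnpa2b1, an exon of 36 bases at chr6:51467391-51467426 (minus strand) sets the longer B1 protein apart from A2. It is shown here in lower case throughout.
Hnrnpa2b1 B1 exon: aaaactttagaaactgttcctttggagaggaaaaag

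The 12 libraries held 57174654 to 82187009 counts. Jmjd4, which checks the labels, averaged 14.6 CPM in flox hearts and 7.83 CPM in cKO hearts, where CPM is counts-per-million of the TMM-scaled library size. Its log2 fold change was -0.90 (adjusted p = 0.397). The groups overlapped, at 19.0, 8.04 and 16.9 CPM in flox replicates 1 to 3 against 8.95, 4.92 and 9.63 CPM in cKO hearts. The log2 fold change of Jmjd4 was -0.25 when scaled to total counts alone and -0.65 without flox replicate 1. In the NRVCs its log2 fold change was 0.25 (adjusted p = 0.770), and -0.16 without siNC replicate 3. The libraries labelled siJmjd4 therefore show no measurable loss of Jmjd4 transcript, and the direction of each NRVC comparison rests on the labels alone. Flox replicate 3 stood apart, with 41.7% of its counts from the mitochondrial genome against 14.2% to 24.1% in the other heart libraries. Against the other libraries of its group, each of flox replicate 3, cKO replicate 2, siNC replicate 3 and siJmjd4 replicate 1 had relatively fewer counts in genes with long transcripts, with a Spearman rho across genes of -0.61, -0.55, -0.48 and -0.37. Results are therefore also given without them. Of the cell type markers, the summed cardiomyocyte level was 42168 to 62321 CPM in flox and 27024 to 30209 in cKO hearts over 7 genes, the fibroblast level 736 to 834 against 1820 to 4328 over 7 genes, and the macrophage level 91.2 to 179.7 against 239.5 to 320.5 over 6 genes. No marker passed the test. In the NRVCs the fibroblast markers summed to 24518 to 25982 CPM with siNC and 24604 to 28565 in the libraries labelled siJmjd4, above the cardiomyocyte markers at 11563 to 17386 and 8824 to 10960 CPM. The part of cell makeup in any result below was not tested, and in such bulk samples fewer cells of a type and less RNA per cell cannot be told apart.

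Pkm was the pyruvate kinase transcript in every library. Pklr had 0 counts in all 12 libraries, while Pkm had 34681 to 81068. A count of 0 allows up to 3 counts, so Pkm was at least 13794-fold higher than Pklr per transcript length in flox replicate 3, the library with the lowest bound, and at least 32244-fold higher in cKO replicate 3, the one with the highest. The bound covers counting error only, and whether the authors' counting drops weakly covered genes is not stated, though both tables list genes at 1, 2 and 3 counts. Of the tissues that use Pklr, the liver markers summed to at most 9.21 CPM in any library, while the erythroid markers reached 2298 CPM in the hearts and 1.66 CPM in the NRVCs. Only 3 of the 7 erythroid and 3 of the 4 liver markers had a row for the rat, so the sums of the 2 systems cover different genes. Hcn3 overlaps the end of Pklr on the other strand and had a mean of 0.0768 CPM in flox and 0.479 in cKO hearts.

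Set per kb of the longest annotated mouse transcript, Pkm led the 8 members with counts in all 4 groups. In flox hearts it was at 393 ± 15.0 CPM per kb (SD, n = 3). Hnrnpa2b1 followed at 91.5 ± 10.2 CPM per kb, then Hnrnpa1 at 40.5 ± 12.6 and Srsf3 at 31.2 ± 11, whose ranges overlapped. Below these was Ptbp1 at 10.6 ± 1.75 CPM per kb. Rbm4 (6.14 ± 2.11), Ptbp3 (4.62 ± 1.83) and Ptbp2 (3.69 ± 1.00) were lowest, each of these 3 overlapping its neighbour. The cKO hearts kept the order of the first 5, and of the 8 Rbm4 was lowest there, at 3.86 ± 0.528 CPM per kb.

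The order differed in the NRVCs, where Hnrnpa1 came after Pkm in both groups. With siNC, Hnrnpa1 was at 154 ± 11.7 CPM per kb (SD, n = 3) and Ptbp1 next at 114 ± 27.6. Hnrnpa2b1 was at 68.6 ± 41.3 CPM per kb, overlapping Ptbp1 above and Srsf3 (35.4 ± 5.57) below. Ptbp1 and Hnrnpa2b1 were near each other in siNC replicates 1 and 2 and far apart in siNC replicate 3 (145.5 against 21.9 CPM per kb), and in the libraries labelled siJmjd4 Hnrnpa2b1 (106 ± 9.07) was above Ptbp1 (96.3 ± 3.36), with overlap. Ptbp2 (2.29 ± 1.71 CPM per kb) and Ptbp3 (0.910 ± 0.265) were lowest. These are mouse lengths applied to rat genes. Species, age, tissue against culture and the separate tables differ together between the systems, so the following levels are set side by side with no test. The mean CPM of Ptbp1 was 10.7 times higher in siNC cells (359.9) than in flox hearts (33.6), that of Hnrnpa1 3.81 times higher (480.1 against 126), and that of Ptbp3 5.07 times lower (6.24 against 31.7), with no overlap of the libraries in any of these. Pkm itself differed little, at 1115 CPM in siNC cells and 955 in flox hearts, and the libraries overlapped.

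**Figure D1:**
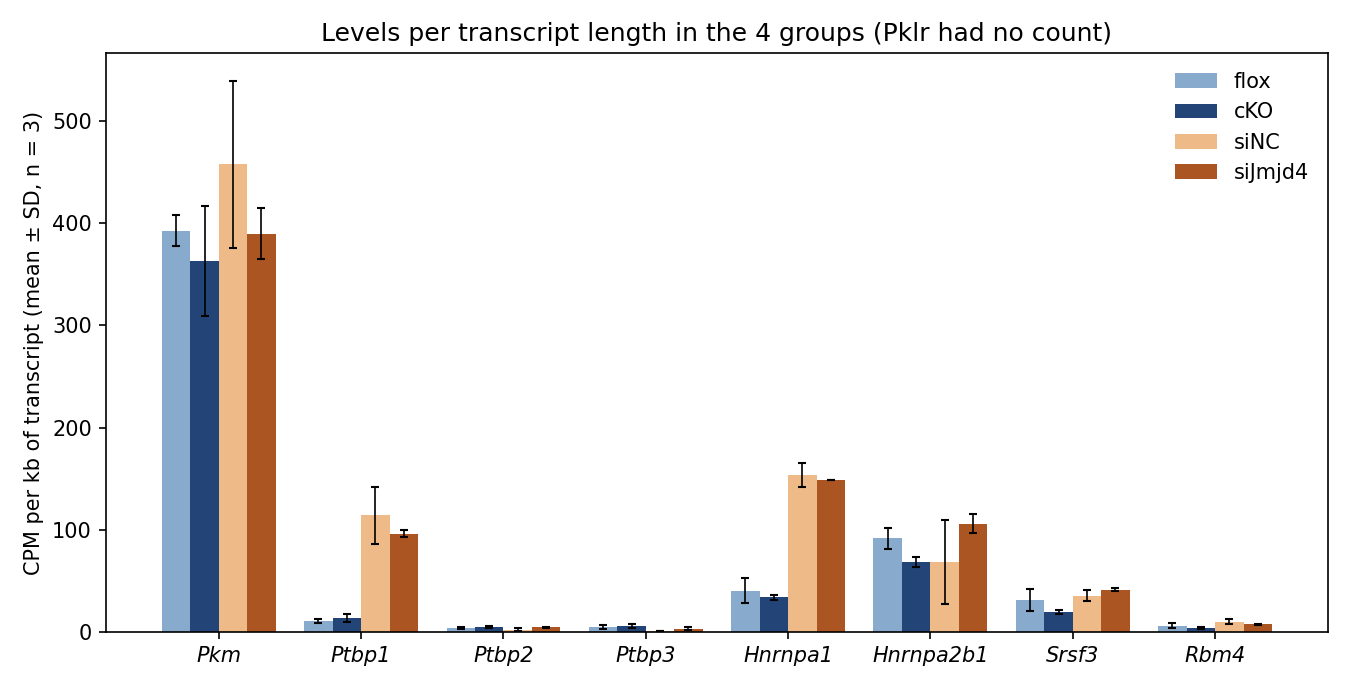
Mean level of each member per kb of transcript (y axis, CPM per kb) in flox and cKO mouse hearts and in NRVCs given siNC or labelled siJmjd4; bars are means and error bars the SD over 3 libraries. Pkm is the tallest bar in every group, and Ptbp1 stands at 10.6 CPM per kb in flox hearts and 114 in siNC cells.

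The makeup of the PTB family also differed between the systems. Per transcript length, Ptbp1 made up 56.9% ± 5.63 (SD, n = 3) of the summed Ptbp1, Ptbp2 and Ptbp3 in flox hearts and 57.4% ± 6.74 in cKO hearts. Ptbp3 made up 23.7% ± 4.59 in flox and 24.2% ± 3.86 in cKO hearts, and Ptbp2 made up 19.4% ± 1.82 and 18.5% ± 3.52. The flox and cKO libraries overlapped for each of the 3 genes. In the NRVCs, Ptbp1 made up 95.5%, 96.0% and 99.3% of the family in siNC replicates 1, 2 and 3, and 94.0%, 92.4% and 91.4% in those labelled siJmjd4. The Ptbp3 share was 1.12%, 0.951% and 0.425% with siNC against 1.88%, 3.22% and 4.31% in the libraries labelled siJmjd4, which did not overlap. By counts alone, without length, the Ptbp1 share was 38.8% to 50.1% in flox hearts and 93.4% to 98.8% in siNC cells. By counts Ptbp3 was above Ptbp1 in flox replicate 1 (41.1% against 38.8%), flox replicate 2 (42.6% against 40.2%) and cKO replicate 1 (44.5% against 36.8%). It was below Ptbp1 in the other heart libraries, so the order of these genes in hearts depends on the length used.

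**Figure D2:**
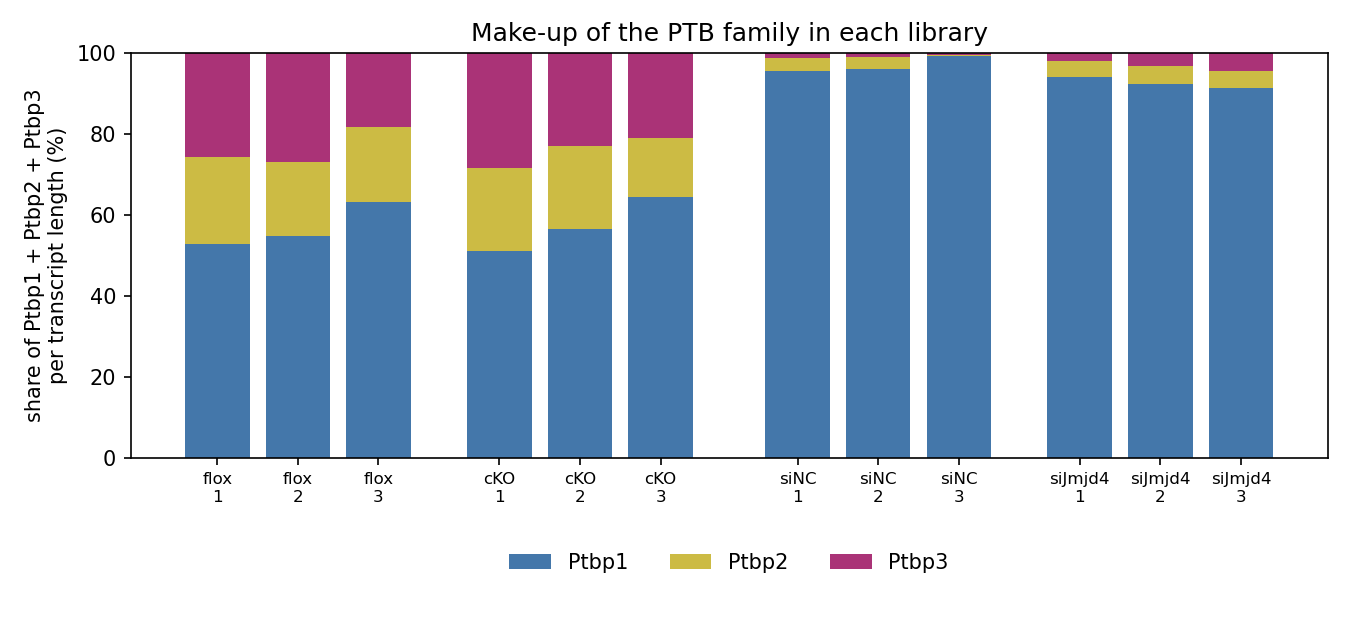
Share of Ptbp1, Ptbp2 and Ptbp3 in their sum per transcript length (y axis, percent) in each of the 12 libraries (x axis, group and replicate). Ptbp1 takes 51.1% to 64.5% in the heart libraries and 91.4% to 99.3% in the NRVC libraries.

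The first comparison asks whether the transcript level of these genes differed between cKO and flox hearts. None of the 8 members tested passed edgeR's quasi-likelihood test at a Benjamini-Hochberg adjusted p under 0.05, where 92 of 18094 genes did (0.508%). None had an unadjusted p under 0.05, and DESeq2's Wald test called none of the 8 either, against 9.69% of all genes. By level, Srsf3, Rbm4 and Hnrnpa2b1 were lower in all 3 cKO libraries than in any flox library on TMM-scaled CPM, though scaled to total counts alone all 3 had positive fold changes. That is 3 of 8 members with groups that do not overlap, all lower, against 11.2% of all genes that were lower without overlap and 26.1% in either direction.

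Pkm was at 913, 972 and 979 CPM in flox replicates 1, 2 and 3, against 741, 999 and 906 CPM in the cKO hearts in the same order. The groups overlapped, with cKO replicate 1 the lowest library and cKO replicate 2 the highest. The mean was 955 ± 36.5 CPM in flox and 882 ± 131 in cKO (SD, n = 3). This gave a log2 fold change of -0.11 (SE 0.36, adjusted p = 0.928), with a 95% interval of the fold from 0.517 to 1.65. That interval covers both lower and higher Pkm in cKO hearts. The smallest change of Pkm that the test could detect was not computed.

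The PTB genes had means that were higher in cKO hearts, with groups that overlapped. Ptbp1 was at 34.2, 38.9 and 27.8 CPM in flox replicates 1 to 3, against 43.2, 32.4 and 55.4 CPM in the cKO hearts. The groups overlapped through cKO replicate 2. Its log2 fold change was 0.38 (SE 0.33, adjusted p = 0.669). Without flox replicate 3 it was 0.26, and with cKO replicate 2 also left out 0.42 (SE 0.16, adjusted p = 0.120). Ptbp3 was at 36.2, 41.3 and 17.5 CPM in flox and 52.2, 28.4 and 39.2 CPM in cKO hearts, with a log2 fold change of 0.34 (SE 0.42, adjusted p = 0.788). Flox replicate 3 was the lowest library for it, and without that library the log2 fold change was 0.05. Ptbp2 ranged from 10.3 to 17.8 CPM in flox and from 15.0 to 22.0 CPM in cKO hearts, with a log2 fold change of 0.24 (SE 0.33) and of 0.04 without flox replicate 3. Plppr3, which overlaps Ptbp1 on the other strand, had a mean of 1.49 CPM in flox hearts, against 33.6 CPM for Ptbp1.

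The hnRNP A genes, whose proteins act with PTBP1 on the Pkm exon pair, differed from each other in whether the libraries overlapped. Hnrnpa2b1 was at 301, 325 and 374 CPM in flox and at 259.9, 227 and 260.1 CPM in cKO hearts. All cKO libraries were below all flox libraries, at a log2 fold change of -0.42 (SE 0.32, adjusted p = 0.618). That fold change was -0.33 without flox replicate 3 and -0.28 with cKO replicate 2 also left out. Hnrnpa1 was at 103, 104 and 171 CPM in flox and at 96.3, 112 and 108 CPM in cKO hearts. Only flox replicate 3 stood above the cKO libraries. The fitted log2 difference was -0.26 (SE 0.34; adjusted p = 0.801). It was 0.03 without that library. Hnrnpa1 has processed copies in the genome, and how reads shared with them were counted is not stated.

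Srsf3 and Rbm4 had the lowest fold changes of the 8. Srsf3, an SR protein that promotes use of the M2 exon, was at 97.8, 102 and 176 CPM in flox and at 75.4, 85.8 and 72.7 CPM in cKO hearts. The groups did not overlap, and flox replicate 3 was 1.77 times the mean of the other 2 flox libraries. The fitted log2 difference was -0.68 (SE 0.36; adjusted p = 0.431). It was -0.35 (adjusted p = 0.342) without flox replicate 3. With cKO replicate 2 left out as well, Srsf3 was the single member called, at -0.44 (adjusted p = 0.0470), in a fit that called 9.53% of all genes lower. Rbm4, a regulator linked to the M1 isoform in differentiating cells, was at 13.5, 15.8 and 25.3 CPM in flox and at 13.2, 10.7 and 10.4 CPM in cKO hearts. Flox replicate 1 and cKO replicate 1 were nearly level. Its log2 fold change was -0.67 (SE 0.34; adjusted p = 0.410). This became -0.35 without flox replicate 3. Rbm4b, the close paralog of Rbm4 on the other strand of the same locus, was at 0.05 (SE 0.31) on the log2 scale, and reads that fit both may be split between them. The annotation also has a readthrough gene, Gm21992, across Rbm4.

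Directions in the hearts depend on the scaling. Scaled to total counts alone, all genes together had a median of 0.54 on the log2 scale, and all 8 members then had positive values, among them Pkm at 0.45, Hnrnpa1 at 0.44, Hnrnpa2b1 at 0.20, Rbm4 at 0.04 and Srsf3 at 0.03. Relative to that median these 5 lay below the typical gene, as they did under TMM.

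**Figure D3:**
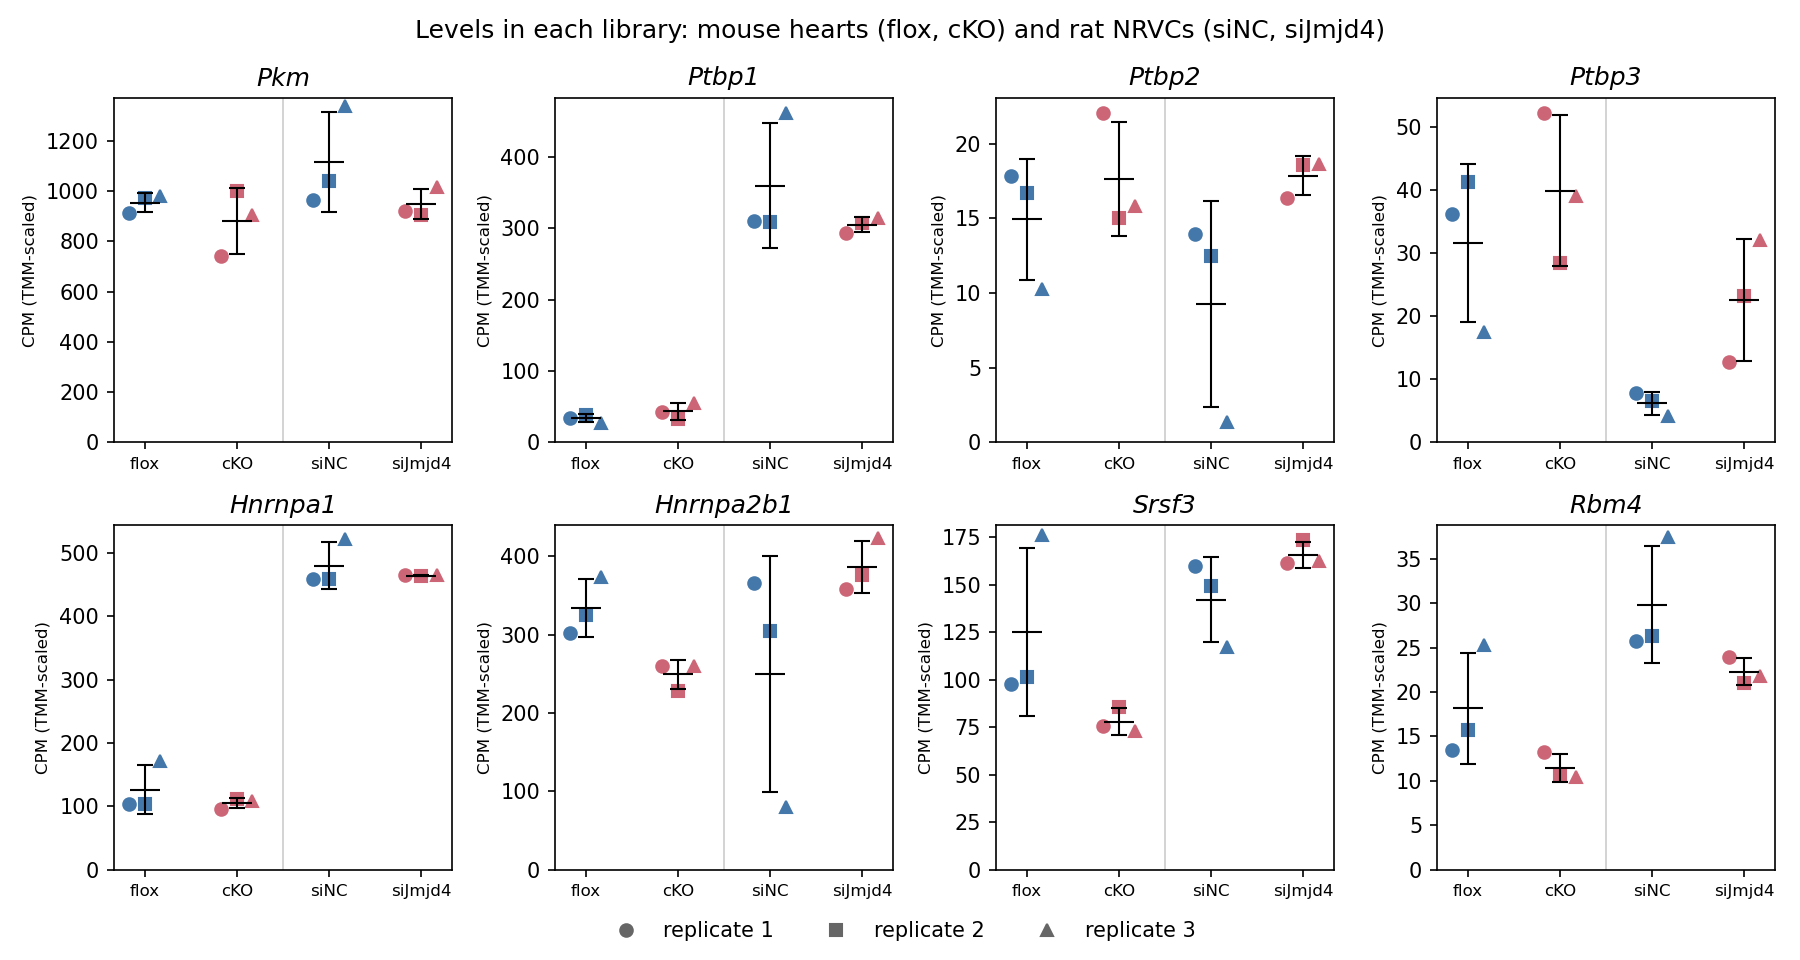
CPM of the 8 members with counts (y axes from 0, TMM-scaled) in each library, by group (x axis) and replicate (marker shape); the black bar is the mean and SD of 3 libraries. In hearts the cKO points lie below the flox points for Hnrnpa2b1, Srsf3 and Rbm4, and in NRVCs Ptbp3 is at 4.27 to 7.85 CPM with siNC and 12.7 to 32.1 in the libraries labelled siJmjd4.

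The second comparison puts NRVC libraries labelled siJmjd4 against siNC. Of the 8 members tested, none was called, where 1 of 15497 genes was (0.00645%). Ptbp3 had an unadjusted p under 0.05, and DESeq2's Wald test called Ptbp3 alone of the 8, in a test that called 0.879% of all genes higher. Ptbp3, Ptbp2 and Srsf3 were higher in all 3 libraries labelled siJmjd4 than in any siNC library, and Rbm4 was lower in all 3. These 4 of 8 members compare with 40.2% of all genes whose groups do not overlap, of which 22.4% of all genes were higher and 17.8% lower, so their number is near the background.

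Ptbp3 had the highest fold change of the members in either system. It had 469, 428 and 226 counts with siNC, or 7.85, 6.61 and 4.27 CPM, and 1098, 1457 and 2301 counts, or 12.7, 23.2 and 32.1 CPM, in the libraries labelled siJmjd4. The groups did not overlap, and the libraries labelled siJmjd4 varied more among themselves than the siNC libraries did. The means were 6.24 ± 1.82 and 22.7 ± 9.70 CPM (SD, n = 3). The fold was 3.63, with a 95% interval from 1.85 to 7.13 before any correction for the number of genes, and the adjusted p was 0.379. In DESeq2's Wald test the adjusted p was 0.00417. Ptbp3 has the longest transcript of the members, 6855 bases, and corrected for each library's trend with length its log2 fold change was 1.37 (adjusted p = 0.459) against 1.86 uncorrected. It was 1.65 (adjusted p = 0.118) without siNC replicate 3, and 1.91 with siJmjd4 replicate 1 also left out. In that last fit it was called (adjusted p = 6.9e-04), and so were 10.6% of all genes as higher.

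Ptbp2, the neuronal PTB gene, was also higher without overlap, by an amount that 1 control library moved by more than 1.5 times. It was at 14.0, 12.5 and 1.34 CPM with siNC, against 16.4, 18.6 and 18.6 CPM under the label siJmjd4. In siNC replicate 3 it had 71 counts, 9.88 times below the mean CPM of the other 2 siNC libraries. This gave a log2 fold change of 0.94 (SE 0.74, adjusted p = 0.445). It was 0.43 (adjusted p = 0.0926) without siNC replicate 3, and 0.47 (adjusted p = 0.0420) with siJmjd4 replicate 1 also left out. The neuron and Schwann cell markers summed to 3.26 to 4.13 CPM with siNC and 3.18 to 4.05 in the libraries labelled siJmjd4, with Elavl3 at 0 in all.

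Ptbp1, the abundant PTB gene of these cells, was at 310.4, 308 and 461 CPM with siNC, against 294, 308 and 314 CPM under the label siJmjd4. Apart from siNC replicate 3 the libraries were level. The fitted log2 difference was -0.24 (SE 0.20; adjusted p = 0.468). It was -0.02 (SE 0.06) without that library. Pkm showed a like pattern, at 965, 1039 and 1340.4 CPM with siNC, against 920, 906 and 1017 CPM under the label siJmjd4. The groups overlapped, and the mean was 1115 ± 199 against 948 ± 60.3 CPM (SD, n = 3). Its log2 fold change was -0.23 (SE 0.18; adjusted p = 0.439). This became -0.08 (SE 0.07) without siNC replicate 3 and -0.0036 (SE 0.12) with the correction for transcript length. The 95% interval of the Pkm fold ran from 0.629 to 1.15.

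Hnrnpa1 had the smallest SE of the members in the NRVCs. It was at 459.6, 458 and 522 CPM with siNC, against 464, 464 and 465 CPM under the label siJmjd4. This gave a log2 fold change of -0.05 (SE 0.14), with a 95% interval of the fold from 0.767 to 1.22, and of 0.05 when scaled to total counts alone. Hnrnpa2b1 was at 366, 304 and 80.0 CPM with siNC, against 359, 376 and 423 CPM under the label siJmjd4. As for Ptbp2, siNC replicate 3 was far below the rest, 4.19 times under the mean of the other 2. The fitted log2 difference was 0.63 (SE 0.51; adjusted p = 0.461). It was 0.20 (SE 0.10) without that library.

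Srsf3 was at 160.1, 149 and 117 CPM with siNC, against 161, 174 and 163 CPM under the label siJmjd4, which were above all siNC libraries by a narrow margin. The fitted log2 difference was 0.22 (SE 0.16; adjusted p = 0.423). It was 0.10 without siNC replicate 3. Rbm4 was at 25.8, 26.4 and 37.5 CPM with siNC, against 24.0, 21.1 and 21.8 CPM under the label siJmjd4. All of the latter were lower, with a log2 fold change of -0.42 (SE 0.20, adjusted p = 0.379), and -0.23 without siNC replicate 3. Rbm4b had a log2 fold change of 0.29 (SE 0.24).

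**Figure D4:**
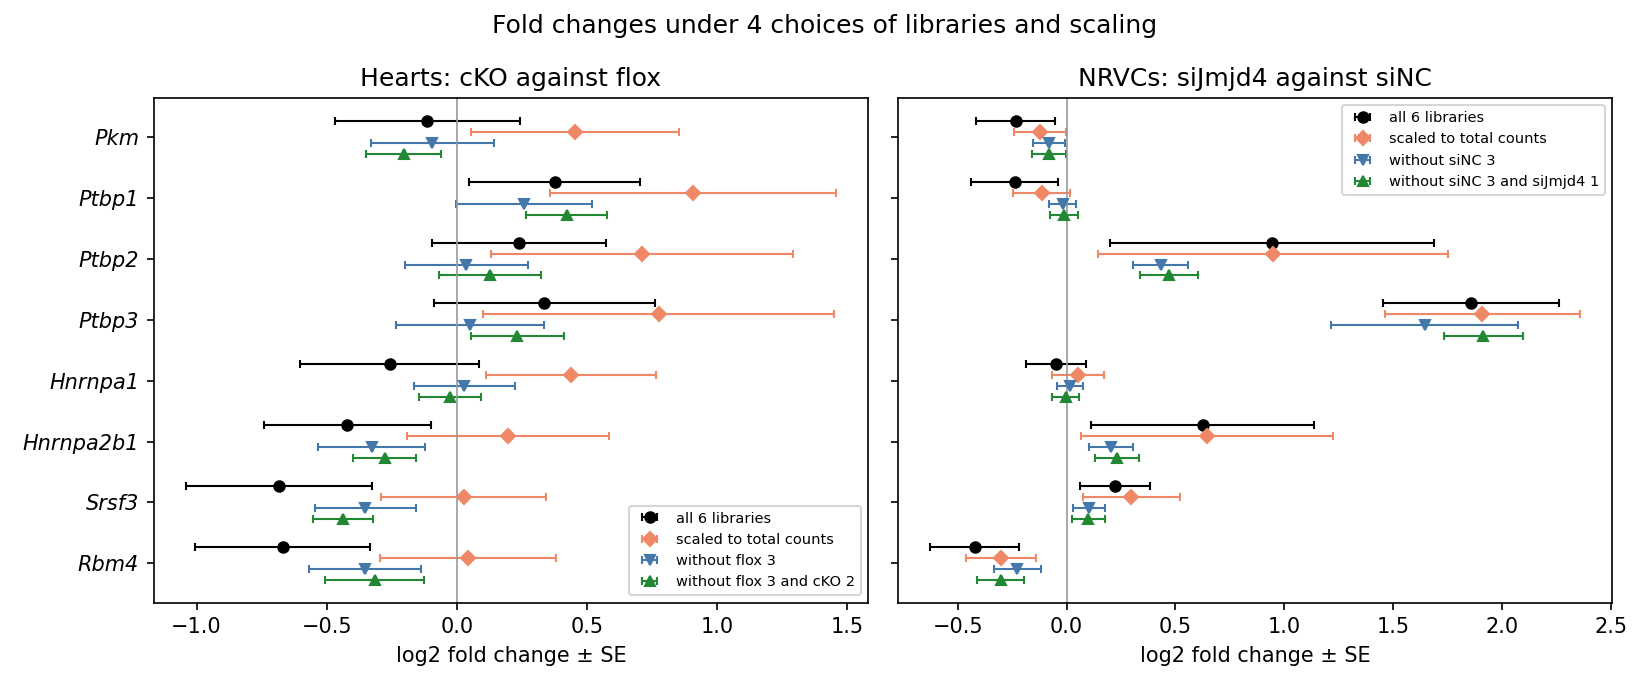
Log2 fold change of each member (x axis; points with SE bars) in hearts (left) and NRVCs (right) with all 6 libraries, scaled to total counts alone, and without the libraries named in the key. Ptbp3 in the NRVCs lies between 1.65 and 1.91 under all 4 choices, while heart Srsf3 and Rbm4 move from -0.68 and -0.67 to 0.03 and 0.04 under total counts.

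The 4 libraries with fewer counts in long genes shifted the members in different ways. Flox replicate 3 was above the other 2 flox libraries in Srsf3, Rbm4 and Hnrnpa1, by 0.82, 0.79 and 0.73 on the log2 scale, and below them in Ptbp3 (-1.15) and Ptbp2 (-0.75). SiNC replicate 3 was below its group in Ptbp2 (-3.31), Hnrnpa2b1 (-2.07) and Ptbp3 (-0.76) and above it in Ptbp1 (0.58), Rbm4 (0.52) and Pkm (0.42). Ptbp3 was below its group in all 4, from -0.69 in cKO replicate 2 to -1.15 in flox replicate 3, and siJmjd4 replicate 1 was at -1.12.

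**Figure D5:**
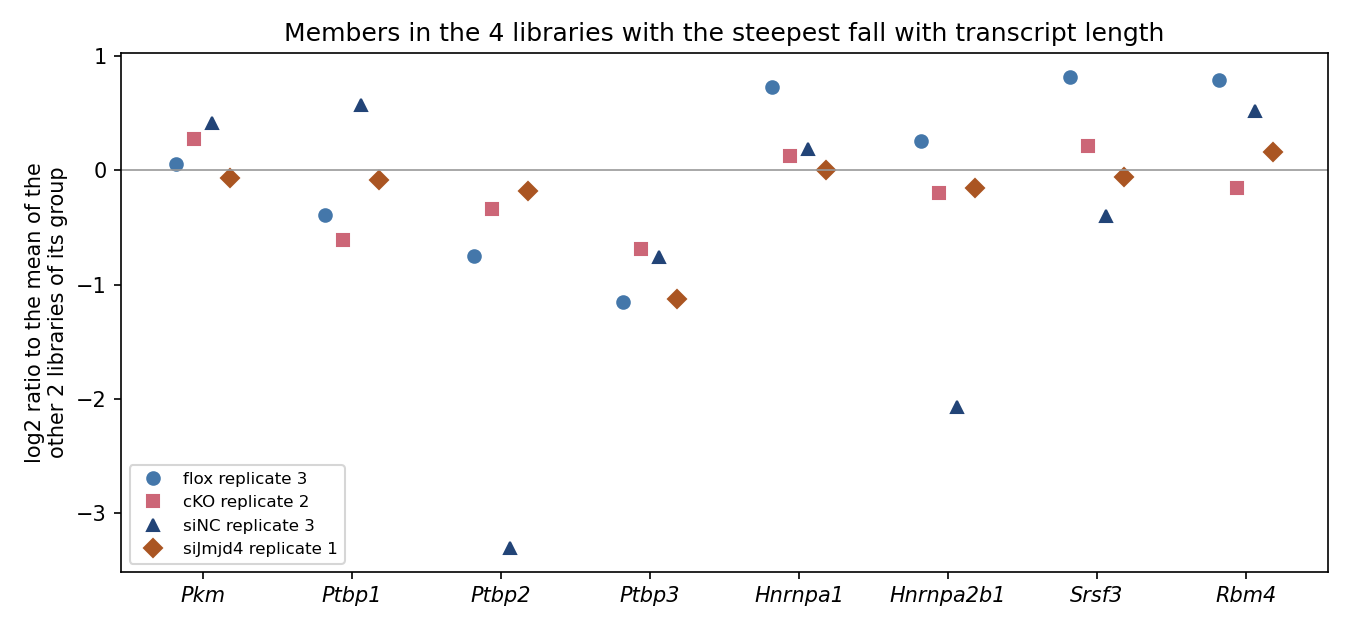
Log2 ratio of each member's CPM to the mean of the other 2 libraries of the same group (y axis) in flox replicate 3, cKO replicate 2, siNC replicate 3 and siJmjd4 replicate 1. Ptbp3 is below 0 in all 4 libraries, and Ptbp2 in siNC replicate 3 is lowest, at -3.31.

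Whether the members responded differently in the 2 systems was tested in 1 model of all 12 libraries, on 13482 genes paired by symbol. The contrast was the log2 fold change in hearts minus that in NRVCs. None of the 8 members was called, against 1.68% of all genes. Ptbp3 was at -1.53 (SE 0.61, adjusted p = 0.247) and Srsf3 at -0.90 (SE 0.38, adjusted p = 0.280), both with an unadjusted p under 0.05. Srsf3 was the member whose libraries did not overlap in opposite directions, lower in cKO hearts and higher in the libraries labelled siJmjd4. Without flox replicate 3 and siNC replicate 3 the Ptbp3 difference was -1.60 (adjusted p = 0.0664) and the Srsf3 difference -0.46 (adjusted p = 0.109).

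Ratios of 2 members within a library do not depend on how libraries are scaled, but they still carry each library's trend with transcript length. The longest mouse transcript has 6855 bases for Ptbp3 and 3169 for Ptbp1. With 3 against 3 libraries an exact two-sided permutation test cannot go below 0.1, so no ratio could pass, and p-values were adjusted over the 5 ratios of genes with counts in each system. In the hearts the log2 ratio of Rbm4 to Ptbp1 was -1.34, -1.30 and -0.14 in flox and -1.71, -1.60 and -2.41 in cKO hearts, and did not overlap. The difference was -0.98 (exact permutation p = 0.1, adjusted 0.5), and -0.59 without flox replicate 3. The ratio of Srsf3 to Ptbp1 differed by -0.99 with overlap (exact permutation p = 0.2). In the NRVCs the log2 ratio of Ptbp3 to Ptbp1 was -5.30, -5.54 and -6.75 with siNC and -4.53, -3.73 and -3.29 in the libraries labelled siJmjd4. It was higher in all 3 of the latter, by 2.02 (exact permutation p = 0.1, adjusted 0.167), and by 1.57 without siNC replicate 3. The ratio of Ptbp2 to Ptbp1 was higher by 1.74 and that of Srsf3 to Ptbp1 by 0.45, each without overlap and with the same p, but by 0.45 and 0.12 without siNC replicate 3. The Hnrnpa2b1 to Hnrnpa1 ratio overlapped in both systems. All the ratios without overlap have Ptbp1 as the second gene, so they are not separate results. In siNC replicate 3 Ptbp1 was 1.49 times the mean of the other 2 siNC libraries.

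Other splicing regulators were read from 3 lists. In the hearts none of 23 other hnRNP genes, of 20 tested SR protein and SR kinase genes or of 24 tested muscle and other tissue splicing regulators was called, with median log2 fold changes of 0.01, 0.09 and -0.08. The median of all genes was 0.00. Without flox replicate 3 the list medians were -0.10, -0.19 and -0.28, and without flox replicate 2 they were 0.07, 0.19 and 0.21, so their signs turned on single libraries. Rbfox1, a regulator of muscle and neuronal exons, had the lowest fold change among the genes named from them, at 16.2 CPM in flox and 1.51 in cKO hearts. Its groups did not overlap, at a log2 fold change of -3.42 (SE 0.74, adjusted p = 0.103), and it was called at -3.90 (adjusted p = 0.00278) without flox replicate 3, as was Rbm38, another muscle regulator, at -1.45 (adjusted p = 0.0313). That fit called 2.93% of all genes lower. With all 6 libraries Rbfox1 was called in DESeq2's Wald test (-3.45, adjusted p = 4.5e-05), which called 9.69% of all genes. It was also called with the correction for transcript length (-3.47, adjusted p = 0.0474), which called 2.46% of all genes lower. Of all genes 11.2% were lower without overlap. The other genes with the smallest p in their lists were Hnrnph3 (-0.69), Hnrnpc (-0.32), Clk2 (0.56) and Srsf7 (-0.48), with adjusted p from 0.340 to 0.759. Without flox replicate 3 they were at -0.48, 0.07, 0.27 and -0.19. With cKO replicate 2 also left out, 4 of the 24 tissue regulators were called lower, in a fit that called 9.53% of all genes lower.

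In the NRVCs the hnRNP list had 17 of 20 tested genes with a positive log2 fold change and a median of 0.34, the SR list a median of 0.19 and the tissue regulators one of 0.22, beside 0.01 for all genes, and no gene of the 3 lists was called. Without siNC replicate 3 these medians were 0.11, 0.08 and 0.11, and with the correction for transcript length 0.23, 0.14 and 0.02, beside 0.04 for all genes so corrected. The genes with the smallest p were Syncrip (0.68) and Hnrnpll (0.44) of the hnRNP list, Srpk1 (0.40) and Srpk3 (-0.97), kinases of SR proteins, and Mbnl3 (1.41) and Mbnl2 (0.49), muscleblind genes that act in muscle splicing, all with an adjusted p of 0.379. Corrected for the trend with transcript length, Syncrip was at 0.04, Hnrnpll at 0.27, Srpk1 at 0.14 and Mbnl2 at 0.13. Srpk3 was then at -0.78 and Mbnl3 at 1.23. Mbnl3 had a low level, at 0.33 CPM with siNC and 0.89 in the libraries labelled siJmjd4. Without siNC replicate 3, Syncrip was at 0.44, Hnrnpll at 0.29 and Srpk3 at -0.50. With siJmjd4 replicate 1 also left out, 4, 1 and 5 genes of the hnRNP, SR and tissue lists were called higher and 1, 3 and 2 lower. That fit called 1661 of 15620 genes higher and 809 lower.

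The other glycolysis enzymes were read in the same way. In the hearts none of 18 was called and the median was -0.19, with 8 positive and 10 negative. Without flox replicate 3 the median turned to 0.23, with 13 positive and 5 negative, and with the correction for transcript length it was 0.06. The genes with the smallest p were Eno1, the widely expressed enolase, at 139 CPM in flox and 281 in cKO hearts (log2 fold change 1.02, SE 0.35, adjusted p = 0.244), and Eno2, the neuronal enolase, at 1.19. Libraries did not overlap for 4 of the 18 that were higher in cKO hearts and 3 that were lower, against 14.9% and 11.2% of all genes. The lower 3, named after their values were seen, were Ldhb, a lactate dehydrogenase subunit (-1.49, SE 0.58), Eno3, the muscle enolase (-1.19, SE 0.52), and Pfkm, the muscle phosphofructokinase (-0.93, SE 0.37). Without flox replicate 3, Eno1 was called higher at 1.22 (adjusted p = 0.0327) and Pfkm lower at -1.10 (adjusted p = 0.0321), in a fit that called 4.26% of all genes higher and 2.93% lower, while Ldhb was at -0.77 and Eno3 at -0.62, neither called. Without both flox replicate 3 and cKO replicate 2, Pfkm (-1.21), Ldhb (-1.08) and Eno3 (-0.94) were called lower. That fit called 4 of the 18 lower and 3 higher, with Eno1 (1.09) among the higher and a median of -0.01. Of all 18804 genes it called 1793 higher and 1792, or 9.53%, lower. With the correction for transcript length, which called 3.25% of all genes higher and 2.46% lower, Eno1 was called higher at 1.16 (adjusted p = 0.0302) and Ldhb lower at -0.99 (adjusted p = 0.0365). DESeq2's Wald test called Pfkm alone of the 18, lower at -0.98 (adjusted p = 0.0137), against 9.69% of all genes. In the NRVCs none of 17 tested was called, 16 of 17 had a negative log2 fold change and the median was -0.45. Libraries did not overlap for 9 of the 17, all lower, against 17.8% of all genes that were lower without overlap and 40.2% in either direction. Tpi1, triosephosphate isomerase, was at 259.5 CPM with siNC and 140.5 in the libraries labelled siJmjd4 (log2 fold change -0.89, SE 0.31), and Eno3 had a log2 fold change of -1.13 (SE 0.47). Without siNC replicate 3 Tpi1 was at -0.46 and Eno3 at -0.40, and with the correction for transcript length at -0.41 and -0.59. The median was -0.17 without siNC replicate 3 and -0.18 with the correction for transcript length. Without both siNC replicate 3 and siJmjd4 replicate 1, 5 of the 17 were called lower and 0 higher, in a fit that called 809 of 15620 genes lower.

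Of 20 genes for transcription factors of Pkm and for proteins known to bind or modify PKM2, all 20 were tested in hearts and 18 in NRVCs, and none was called. DESeq2's Wald test called 1 of the 20 in hearts, against 9.69% of all genes. Without flox replicate 3 and cKO replicate 2, 3 were called higher and 1 lower, against 1793 and 1792 of 18804 genes. In the NRVCs without siNC replicate 3 and siJmjd4 replicate 1, 6 of 18 were called higher and 2 lower, against 1661 and 809 of 15620 genes. Myc, a factor known to raise PTBP1 and hnRNP A transcripts in tumour cells, was at 1.58 CPM in flox and 5.51 in cKO hearts, without overlap. Its log2 fold change was 1.80 (SE 0.40; adjusted p = 0.105). This became 1.53 (adjusted p = 0.0219) without flox replicate 3, where 4.26% of all genes were called higher. With all 6 libraries Myc was called in DESeq2's Wald test (1.74, adjusted p = 5.4e-04). It was also called with the correction for transcript length (1.76, adjusted p = 0.0477), which called 3.25% of all genes higher. In the hearts 3 of the 20 were higher and 0 lower without overlap, against 14.9% and 11.2% of all genes. Ptpn1, a tyrosine phosphatase that acts on PKM2, was at 0.93 (SE 0.33) in hearts. In the NRVCs the smallest p were those of Sp1 (0.43, SE 0.14) and Epas1 (0.88, SE 0.39), both higher without overlap. Of the 18 genes, 7 were higher and 6 lower without overlap, against 22.4% and 17.8% of all genes. Epas1 was at 0.54 without siNC replicate 3. Corrected for transcript length, Sp1 was at -0.19.

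The genes most like Pkm across libraries were sought by the root mean square difference in log2 CPM, each gene centred on its own mean over the 6 libraries. In the hearts these were Ubald1 (0.05), Xrcc1 (0.05), Desi1 (0.06), Pus1 (0.06) and Tpra1 (0.07), among 8381 genes with a median distance of 0.56. In the NRVCs they included Rnf185 (0.02), Litaf (0.02), Hs6st1 (0.03) and Hmga1 (0.03), among 8658 genes with a median of 0.31. No member and no glycolysis enzyme was among them in either system.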

How the data were processed

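The series has 12 RNA-seq libraries, 3 in each of 4 groups. Per the labels' protocols, total RNA was extracted with TRIzol and libraries followed standard Illumina protocols. The submitters' processing notes name HISAT2 2.1.0, StringTie 1.3.4, edgeR 3.20.9 and the builds mm10 and rn6, without roles. Kit, strand, annotation and counting rules were not given in the sources used here. As deposited by the authors, the values are raw counts per gene symbol, 1 table per system.

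Each system was fitted on its own 6 libraries with edgeR 4.0.16 (R 4.3.3): filterByExpr, TMM, robust quasi-likelihood test, two-sided, Benjamini-Hochberg adjustment over the 18094 mouse or 15497 rat genes tested, called at an adjusted p under 0.05. DESeq2 1.42.0, total-count scaling, no filter, a correction for transcript length (lowess span 0.3), a replicate block and left-out libraries were alternatives. CPM use TMM-scaled library sizes. Ratios had 0.5 added to each count, log2 CPM for likeness 0.5 added to CPM. Lengths are of the longest GENCODE M21 mouse transcript, matched for 80.0% and 84.0% of tested genes, and 5 ratios rather than 6 were adjusted together because Pklr had no counts. Between replicates, chi-square over degrees of freedom was 26.1 to 1580, so no library was a duplicate.

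The 9 genes, the lists and the tests were chosen with earlier results of these data known. Genes named are Jmjd4, the 9, of each list the genes called or else the 2 with the smallest p, and the 5 genes most like Pkm per system with a mean of at least 10 CPM, of which 1 is not reported here; Rbm4b, Plppr3, Hcn3 and Gm21992 are named as neighbours or relatives of members, and 3 lower glycolysis genes of the hearts were added after their values were seen. The code was tested on simulated data. A count of 0 allows up to 3 counts, or 0.0365 to 0.0525 counts-per-million of a library total.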

Additional observations from a re-analysis of the deposited data

How the results depend on the processing

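Each system was refitted under 13 alternatives. In the hearts no member was called under any of them except without flox replicate 3 and cKO replicate 2, and in the NRVCs except in DESeq2's Wald test (1 called) and without siNC replicate 3 and siJmjd4 replicate 1. Leaving out libraries gave 0 to 1 members called in the hearts and 0 to 2 in the NRVCs. Of the 5 ratios, 1 was without overlap in the hearts, and 1 to 3 were with libraries left out. In the NRVCs the count was 3, and 3 to 5. Smaller groups overlap less readily, so a rise with libraries left out cannot be read as a result. Of all single genes, 26.1% in the hearts and 40.2% in the NRVCs had groups that did not overlap with all libraries kept. No such share was computed for ratios of 2 genes. Over all genes, 67 higher and 25 lower calls in the hearts became 20 and 0 with total counts alone, 957 and 791 in DESeq2's Wald test and 1793 and 1792 without flox replicate 3 and cKO replicate 2. The single NRVC call became 136 higher and 32 lower in the Wald test and 1661 and 809 without siNC replicate 3 and siJmjd4 replicate 1. The cause was not tested.

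Scaled to total counts alone, the log2 fold changes reversed to 0.45 for Pkm, 0.44 for Hnrnpa1, 0.20 for Hnrnpa2b1, 0.027 for Srsf3, 0.044 for Rbm4, 0.41 for Hnrnpc and 0.22 for Srsf7 in the hearts, and to 0.054 for Hnrnpa1 in the NRVCs. With the length correction they reversed to -0.27 for Rbm4b in the hearts and, in the NRVCs, to 0.038 for Hnrnpa1, -0.047 for Rbm4b and -0.19 for Sp1. With DESeq2's size factors and in its Wald test Rbm4b in the hearts was at -0.0073 and -0.0072. With libraries left out, values ran from -0.21 to 0.0035 for Pkm, from -0.37 to 0.029 for Hnrnpa1, from -0.48 to 0.072 for Hnrnpc and from -0.081 to 0.23 for Rbm4b in the hearts, and from -0.076 to 0.017 for Hnrnpa1, from -0.0078 to 0.40 for Rbm4b and from -0.20 to 0.66 for Jmjd4 in the NRVCs. Without flox replicate 3 and siNC replicate 3 the difference between systems was -0.022 for Pkm and 0.0035 for Hnrnpa1.

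Same-numbered replicates did not regularly deviate together (r = 0.36, -0.48 and -0.33 in hearts, -0.14, -0.02 and -0.15 in NRVCs). The highest r in the hearts, 0.55, was between flox replicate 3 and cKO replicate 2, both among the libraries with fewer counts in long genes. These values cannot show whether same-numbered replicates shared a litter, culture or batch. With a replicate block 0 members and 0 genes were called in either system, with 1591 and 472 genes at an unadjusted p under 0.05, and 0 members for the difference.

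At these depths counting error is small for all members but Pklr, and the spread between 3 libraries sets the precision. Isoform shares, strand and protein were not measured.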
